A study of Mus musculus with 4 samples.

Results

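The Dusp family of MAP kinase phosphatases was examined in astrocyte-enriched cultures (AECs) after oxygen–glucose deprivation (OGD). Its 10 members, *Dusp1*, *Dusp2*, *Dusp4*, *Dusp5*, *Dusp6*, *Dusp7*, *Dusp8*, *Dusp9*, *Dusp10* and *Dusp16*, were found by their gene name among the non-control spots of the arrays, and every probe with such a name was kept. This gave 13 probes of 39429 on the array and 10 genes of 29676 gene names, with a pair of probes each for *Dusp7*, *Dusp8* and *Dusp16*. The AECs were mixed glia from the cortex of newborn ICR mice, and in every group microglia had first been depleted by PLX3397, which blocks the receptor for colony-stimulating factor-1. Untreated AECs (2 arrays) were compared with AECs kept in glucose-free medium under hypoxia for 15 h (2 arrays), and each sample's total RNA was labeled with Cy3. The 4 arrays shared 1 slide and 1 scan. The methods state that wells were seeded from separate cultures of different pups, which the labels do not repeat for the arrays, and the p-values measure the spread between these samples. In such a bulk sample, fewer cells of a type and less RNA per cell cannot be told apart.

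MAP kinases (ERK, JNK and p38) are switched on by phosphorylation of a threonine and a tyrosine in their activation loop, and these phosphatases switch them off by removing both phosphates. The family is usually divided into inducible nuclear enzymes (class I: *Dusp1*, *Dusp2*, *Dusp4*, *Dusp5*), cytoplasmic enzymes that prefer ERK (class II: *Dusp6*, *Dusp7*, *Dusp9*) and enzymes that prefer JNK and p38 (class III: *Dusp8*, *Dusp10*, *Dusp16*). Several members are themselves transcribed in response to MAP kinase signaling and so act as negative feedback.

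The signal of the arrays as a whole differed between the groups. Over the non-control probes, the processed signal had a 75th percentile of 2135 and 2164 in the untreated samples and of 887 and 776 in the OGD samples, a difference of −1.37 on the log2 scale. The 9 spiked-in control probes detected well above background throughout changed on average by −0.08 on the log2 scale (from −0.75 to 0.28). Values below are therefore given relative to each array's 75th percentile, the scaling named in the methods, and the change with scaling on the spike-in probes is given beside them. The median log2 change of all 28258 tested probes was 0.18 with the former and −1.11 with the latter. Astrocyte markers were well above background on all arrays (9 of 9), with a summed signal of 137 to 158 times the 75th percentile in untreated AECs and 212 to 215 times after OGD. The 8 microglial markers were all well above background on both untreated arrays and 6 of 8 after OGD, with sums of 4.41 to 4.81 and 6.64 to 6.93. Meningeal fibroblast markers (4 of 4 in both groups) summed to 14.4 to 18.6 in untreated AECs and 10.1 to 12.1 after OGD. The sums for oligodendrocyte markers (6 of 6 untreated, 5 of 6 after OGD) were 5.43 to 5.57 and 5.44 to 5.51, and those for neuronal markers (4 of 4 and 3 of 4) were 5.12 to 5.51 and 4.68 to 5.11. NG2 glia markers (2 of 2 in both groups) summed to 0.257 to 0.284 and 0.308 to 0.347, and endothelial markers (2 of 3, with *Cldn5* never well above background) to 0.133 to 0.14 and 0.146 to 0.173. The part of these shifts in the results was not tested.

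After OGD, 9 of the 10 genes were higher and *Dusp6* was lower, taking the brightest probe of each gene. All 13 probes passed the limma adjusted p limit of 0.05 (12 higher, 1 lower), where 65.0% of all tested probes passed it, 37.9% higher and 27.1% lower. Without untreated replicate 1 or without untreated replicate 2, 10 of 13 passed (both probes of *Dusp8* and the brighter probe of *Dusp16* did not), where 40.9% and 38.0% of all probes did. By gene, the background with all arrays was 37.1% higher and 27.8% lower. With a 2-fold limit added, 7 probes were higher and 1 was lower, against 13.9% and 14.8% of all probes, and with spike-in scaling the numbers were again 7 and 1, against 2.32% and 54.9%. With the 10-fold limit of the methods, 5 of 13 probes passed (*Dusp2*, *Dusp4*, *Dusp5*, *Dusp9* and *Dusp10*, all higher), against 1.33% of all probes in either direction. The median log2 change of the 10 genes was 3.06, and that of all 21064 genes tested was 0.16. All member probes passed the filter on dim probes, *Dusp9* only through the OGD arrays. The number past 10-fold depended on the processing: 2 probes (*Dusp2* and *Dusp4*) remained with normexp background correction, where 0.375% of all probes passed, and 1 (*Dusp2*) with spike-in scaling, where 4.34% did. These counts use fitted values, and *Dusp9*, with untreated signals not well above background, cannot be placed below 10-fold in either. With spike-in scaling, 7 of the 13 probes were higher and 6 were lower, because *Dusp7*, *Dusp8* and the brighter probe of *Dusp16* changed sign. Of all probes, 4.47% were higher and 81.9% lower with that scaling. With 2 arrays per group, an exact two-sided permutation test of a single value cannot go below 0.333, so the p-values given are those of the limma fit over all probes.

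**Figure D1:**
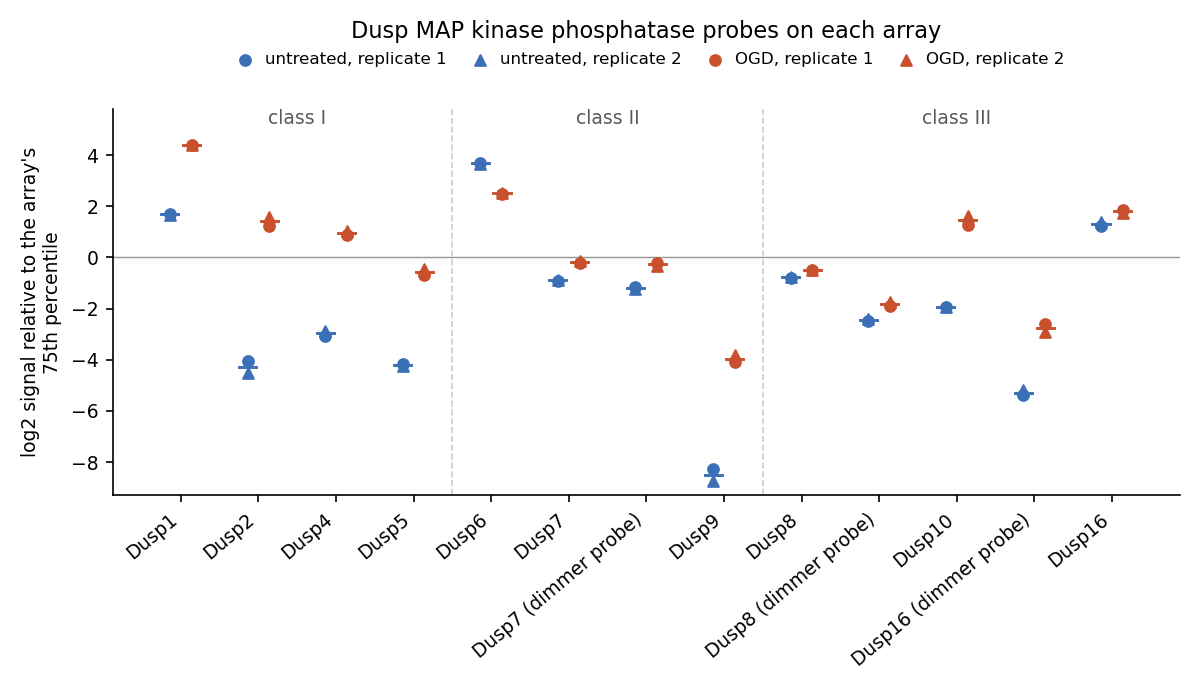
The log2 processed signal relative to the array's 75th percentile is plotted for the 13 probes on each of the 4 arrays, with short lines at the group means and the classes separated by dashed lines. The OGD points lie above the untreated points for every probe except that of *Dusp6*, and with spike-in scaling the probes of *Dusp7* and *Dusp8* and the brighter probe of *Dusp16* also lie lower after OGD. Heights of different probes are not comparable, and the untreated values of *Dusp9* were not well above background.

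The set of RefSeq promoters used here (GRCm38.p6) covered 8 of the 10 genes, without *Dusp4* and *Dusp9*. The 250 bases before the transcription start of 6 of the 8 are shown, since these genes span the responses: *Dusp1* (chr17:26508473-26508722, minus strand), *Dusp2* (chr2:127335909-127336158, plus strand), *Dusp5* (chr19:53528895-53529144, plus strand) and *Dusp10* (chr1:184034131-184034380, plus strand) rose strongly, *Dusp6* (chr10:99262981-99263230, plus strand) fell, and *Dusp8* (chr7:142095285-142095534, minus strand) changed least relative to the 75th percentile. Each is written 5′ to 3′ on the gene's own strand, and capitals mark matches to 1 of 6 motifs searched on both strands.
Dusp1: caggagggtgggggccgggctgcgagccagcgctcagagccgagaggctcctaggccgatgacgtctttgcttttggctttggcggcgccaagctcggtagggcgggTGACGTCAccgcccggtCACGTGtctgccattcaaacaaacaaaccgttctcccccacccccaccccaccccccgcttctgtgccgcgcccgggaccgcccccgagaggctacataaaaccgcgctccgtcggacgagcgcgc
Dusp2: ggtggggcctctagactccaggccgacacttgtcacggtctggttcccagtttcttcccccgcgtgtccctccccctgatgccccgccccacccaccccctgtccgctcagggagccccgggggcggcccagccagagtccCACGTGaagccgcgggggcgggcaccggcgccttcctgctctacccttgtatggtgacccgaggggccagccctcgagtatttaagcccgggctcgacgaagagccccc
Dusp5: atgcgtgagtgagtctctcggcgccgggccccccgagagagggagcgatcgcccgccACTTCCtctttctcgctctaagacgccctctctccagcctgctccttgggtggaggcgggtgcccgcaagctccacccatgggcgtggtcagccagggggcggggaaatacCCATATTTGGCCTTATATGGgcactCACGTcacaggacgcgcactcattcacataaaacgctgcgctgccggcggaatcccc
Dusp10: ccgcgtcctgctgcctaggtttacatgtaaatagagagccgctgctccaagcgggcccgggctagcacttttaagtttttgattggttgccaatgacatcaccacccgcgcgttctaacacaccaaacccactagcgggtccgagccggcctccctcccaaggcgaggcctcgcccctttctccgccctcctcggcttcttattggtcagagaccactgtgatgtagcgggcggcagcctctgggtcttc
Dusp6: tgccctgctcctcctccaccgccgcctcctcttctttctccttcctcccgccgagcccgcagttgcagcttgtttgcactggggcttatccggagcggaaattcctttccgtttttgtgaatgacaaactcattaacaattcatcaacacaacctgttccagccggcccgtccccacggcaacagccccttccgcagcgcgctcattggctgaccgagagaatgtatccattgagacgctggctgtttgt
Dusp8: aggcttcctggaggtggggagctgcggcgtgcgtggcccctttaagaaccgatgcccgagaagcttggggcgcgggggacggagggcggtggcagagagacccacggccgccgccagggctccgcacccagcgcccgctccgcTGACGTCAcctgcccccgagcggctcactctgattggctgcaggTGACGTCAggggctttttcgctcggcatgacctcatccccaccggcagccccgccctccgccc

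The motifs were searched in windows of 300 bases (250 before and 50 after the start) in the 8 members and in all 32851 windows of the table. ACGTG was the only form of the hypoxia response element core that was searched. It was present in *Dusp1*, *Dusp2* and *Dusp5* (3 of 8) and in 19.6% of all windows. In *Dusp1* and *Dusp2* it lay in the palindrome CACGTG, read on both strands, from −126 to −121 and from −109 to −104 relative to the start. TGACGTCA, the cyclic AMP response element, was present in *Dusp1* (−143 to −136) and in 2 copies in *Dusp8* (−107 to −100 and −63 to −56), and in 1.79% of all windows. The CArG box, which binds serum response factor, occurred in *Dusp5* as an adjacent pair (−82 to −73 and −72 to −63), and in 1.63% of all windows. GGAAGT, a motif of ETS factors, matched in *Dusp5* (−193 to −188) and in 23.8% of all windows. TGANTCA (AP-1) and TGATGNAA (ATF4 composite element) matched in none of the 8 windows (0 of 8 each), against 7.81% and 3.97% of all windows. The windows of *Dusp6* and *Dusp10*, which changed in opposite directions, and those of *Dusp7* and *Dusp16* held none of the 6 motifs. The cyclic AMP response element was shared by *Dusp1*, which rose 6.53-fold, and *Dusp8*, whose change was 1.22-fold. The share of G and C in the 250 bases ranged over the 8 members from 56.4% in *Dusp6* to 77.2% in *Dusp7*, with a median of 52.4% over all windows.

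The class I enzymes all rose. *Dusp2* (PAC-1), a nuclear phosphatase first known from activated lymphocytes, had processed signals of 130 and 95.6 in untreated AECs and 2085 and 2319 after OGD (probe at chr2:127163930-127163989, mm9). The groups did not overlap, and the untreated values were low though well above background on both arrays. Its log2 change was 5.68 ± 0.22 (SE, n = 2 per group), or 51.1-fold, with a limma adjusted p of 0.000766, and 99.9% of tested probes lay below it. Normexp correction gave 33.6-fold and spike-in scaling 20.9-fold.

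*Dusp4* (MKP-2), which acts on ERK and JNK in the nucleus, had signals of 256 and 296 in untreated AECs and 1606 and 1574 after OGD (chr8:35882045-35882104, mm9). Both OGD arrays were above both untreated arrays, and the log2 change was 3.90 ± 0.12 (SE; 15.0-fold, limma adjusted p = 0.000729). *Dusp5*, the ERK-selective nuclear member, went from 119 and 115 to 545 and 568 (chr19:53615682-53615741, mm9). Its log2 change of 3.62 ± 0.12 (SE; 12.3-fold, limma adjusted p = 0.000729) was close in size to that of *Dusp4*, and the groups did not overlap. *Dusp1* (MKP-1), the widely expressed immediate early member that acts on p38 and JNK as well as ERK, had signals of 6917 and 6870 in untreated AECs and 18443 and 16370 after OGD (chr17:26642526-26642536, mm9, as the files give it). The arrays of each group lay close together, and the log2 change was 2.71 ± 0.075 (SE; 6.53-fold, limma adjusted p = 0.000729). Within class I it had the smallest change. With spike-in scaling the log2 changes were 1.42 for *Dusp1*, 4.39 for *Dusp2*, 2.62 for *Dusp4* and 2.33 for *Dusp5*. Each of these 4 genes was thus higher after OGD under both scalings, and even the processed signals without any scaling between arrays were higher on both OGD arrays.

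The class II enzymes diverged. *Dusp6* (MKP-3), the cytoplasmic ERK phosphatase whose transcription is widely used as a readout of ERK activity, had signals of 27903 and 27013 in untreated AECs and 5029 and 4428 after OGD (chr10:98729985-98730044, mm9). Every OGD value was below every untreated value, and *Dusp6* was the only member lower after OGD with 75th-percentile scaling. Its log2 change was −1.17 ± 0.078 (SE, limma adjusted p = 0.00141), or 2.25-fold lower, and 12.7% of tested probes lay below it. Without scaling between arrays the signal was 5.82-fold lower, and with spike-in scaling the log2 change was −2.46.

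*Dusp9* (MKP-4), best known from placenta and insulin-responsive tissue, was read at 6.89 and 5.06 on the untreated arrays, not well above background on either (0 of 2), and at 51.8 and 54.6 on the OGD arrays, well above background on both (chrX:70888467-70888526, mm9). Only a bound can be given: after 75th-percentile scaling, the OGD mean was 20.2-fold above an untreated floor. The rise was at least that large if the floor holds for this probe. The floor was the faintest signal that still counted as well above background on each untreated array (or the probe's own, if higher). It is the lowest such floor, and a higher one would give a smaller bound. The limma adjusted p was 0.000855, for a probe that the filter kept only because of its OGD arrays, so it had to differ. With spike-in scaling the bound from the same floor was 8.28-fold. Normexp recalculated the background and added an offset of 50 to every signal on all arrays, about the size of the OGD signals of *Dusp9*. With it, the fitted log2 change fell from 4.54 to 2.06, and neither fitted value is a bound.

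*Dusp7* (MKP-X), the remaining cytoplasmic ERK phosphatase, was read by probes that start 42 bases apart. The brighter probe (chr9:106277985-106278044, mm9) had signals of 1137 and 1181 in untreated AECs and 774 and 704 after OGD. The other (chr9:106277943-106278000, mm9) had 968 and 924 in untreated AECs and 759 and 623 after OGD. In processed signal both probes were lower on the OGD arrays, whereas relative to the 75th percentile both were higher. The log2 changes were 0.72 ± 0.077 (SE; limma adjusted p = 0.00336) and 0.91 ± 0.087 (SE; limma adjusted p = 0.0026), and they reversed to −0.57 and −0.37 with spike-in scaling. The direction for *Dusp7* thus rested on the scaling.

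Among the class III enzymes, only *Dusp10* passed 2-fold on its brightest probe with 75th-percentile scaling. *Dusp10* (MKP-5), which acts on JNK and p38, had signals of 552 and 559 in untreated AECs and 2161 and 2405 after OGD (chr1:185898608-185898667, mm9). The groups did not overlap, and the untreated arrays were nearly equal. Its log2 change was 3.41 ± 0.15 (SE; 10.6-fold, limma adjusted p = 0.000804), and 2.12 with spike-in scaling. The change lay close to the 10-fold limit, and was 9.43-fold without OGD replicate 2, 9.61-fold with normexp and 9.57-fold with the 75th percentile taken over bright probes.

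*Dusp16* (MKP-7), a JNK-directed phosphatase, gave different sizes with its probes, which start 2220 bases apart on chromosome 6. The brighter probe (chr6:134665783-134665842, mm9, minus strand) had signals of 5010 and 5595 in untreated AECs and 3229 and 2617 after OGD. The other (chr6:134668003-134668062, mm9), upstream of it on the gene's strand, had 52.1 and 59.1 in untreated AECs and 145 and 103 after OGD. In processed signal the probes thus moved in opposite directions, and within each probe the groups did not overlap. Relative to the 75th percentile, the log2 change was 0.51 ± 0.098 (SE; limma adjusted p = 0.0146) for the brighter probe, reversing to −0.78 with spike-in scaling, and 2.52 ± 0.14 (SE; limma adjusted p = 0.00111) for the upstream probe, where spike-in scaling gave 1.23. The difference between the probes was 2.01 ± 0.095 (SE from the arrays alone, without limma) on the log2 scale. It is the same under 75th-percentile and spike-in scaling, but with normexp the changes of the probes were 1.89 and 0.45 and with quantile normalization 2.56 and 0.36. The brighter probe lost its call without untreated replicate 1 (adjusted p = 0.102 by limma) and without untreated replicate 2 (adjusted p = 0.0656 by limma).

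*Dusp8*, a further JNK and p38 phosphatase known from brain and heart, changed least relative to the 75th percentile. Its brighter probe (chr7:149267534-149267593, mm9, minus strand) had signals of 1229 and 1284 in untreated AECs and 638 and 552 after OGD. The other (chr7:149265961-149266020, mm9) had 378 and 412 in untreated AECs and 240 and 229 after OGD. The log2 changes relative to the 75th percentile were 0.29 ± 0.076 (SE; limma adjusted p = 0.033) and 0.62 ± 0.095 (SE; limma adjusted p = 0.00781), and with spike-in scaling they reversed to −1.0 and −0.67. The difference between the probes was −0.33 ± 0.078 (SE from the arrays alone, without limma) on the log2 scale, the brighter minus the other. The brighter probe missed the adjusted p limit under 8 of 16 alternative settings, each left-out array among them, with a limma adjusted p of up to 0.204.

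**Figure D2:**
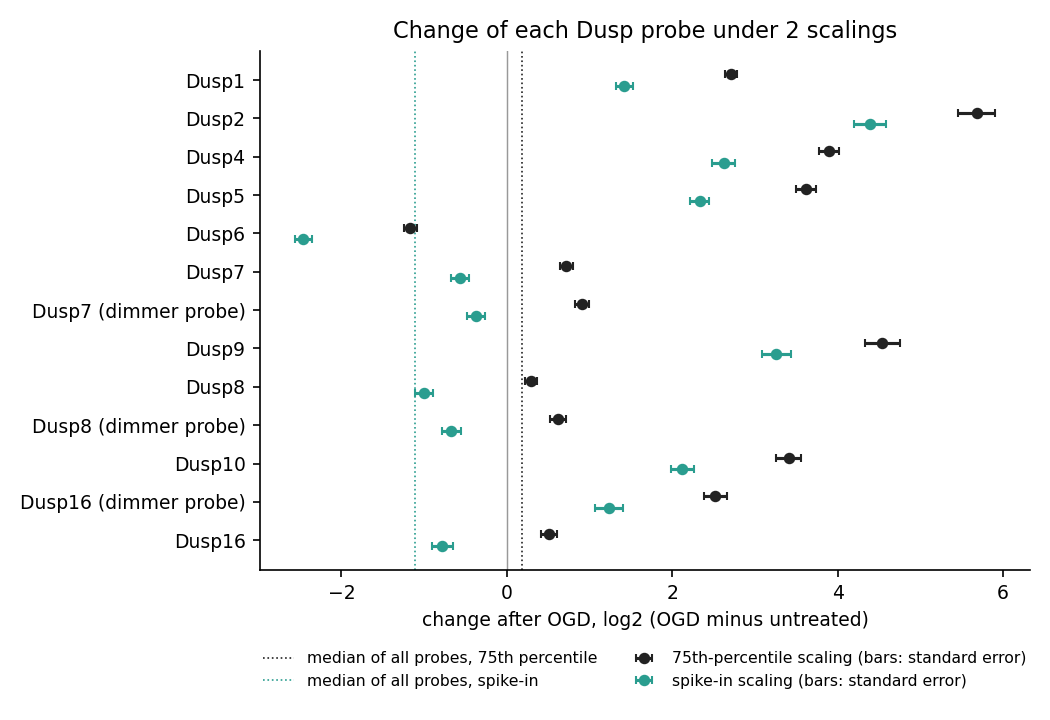
The log2 change (OGD minus untreated) of each of the 13 probes is plotted with its standard error under 75th-percentile scaling (black) and spike-in scaling (green), and dotted lines mark the median of all tested probes under each. *Dusp1*, *Dusp2*, *Dusp4*, *Dusp5*, *Dusp9*, *Dusp10* and the dimmer probe of *Dusp16* lie right of 0 under both scalings and *Dusp6* lies left of 0 under both, whereas *Dusp7*, *Dusp8* and the brighter probe of *Dusp16* cross 0. The value of *Dusp9* is the fitted one, from untreated signals not well above background.

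A ratio between members on the same array does not change when a single constant is subtracted per array, as with 75th-percentile or spike-in scaling, though quantile normalization and normexp do change it. *Dusp6* was taken as the reference after it was seen to be the member that fell, so the direction of the ratios to it is no further result, and only 12.7% of all tested probes had a lower log2 change than *Dusp6*. The ratios are given for their sizes. Their SEs come from the 4 arrays alone, without limma, so they cannot be compared with the SEs of the single genes. The shift of the log2 ratio was largest for *Dusp2*, at 6.84 ± 0.26 (SE), followed by *Dusp4* at 5.07 ± 0.15, *Dusp5* at 4.79 ± 0.12 and *Dusp10* at 4.58 ± 0.17. It was 3.87 ± 0.019 for *Dusp1*. *Dusp9* has no place in this order, since its untreated signals were not well above background. The members with the smallest shifts were *Dusp7* at 1.89 ± 0.056, *Dusp16* at 1.68 ± 0.12 and *Dusp8* at 1.46 ± 0.056, each by its brighter probe. These ratios show unequal change among the members, not which of them stayed the same.

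**Figure D3:**
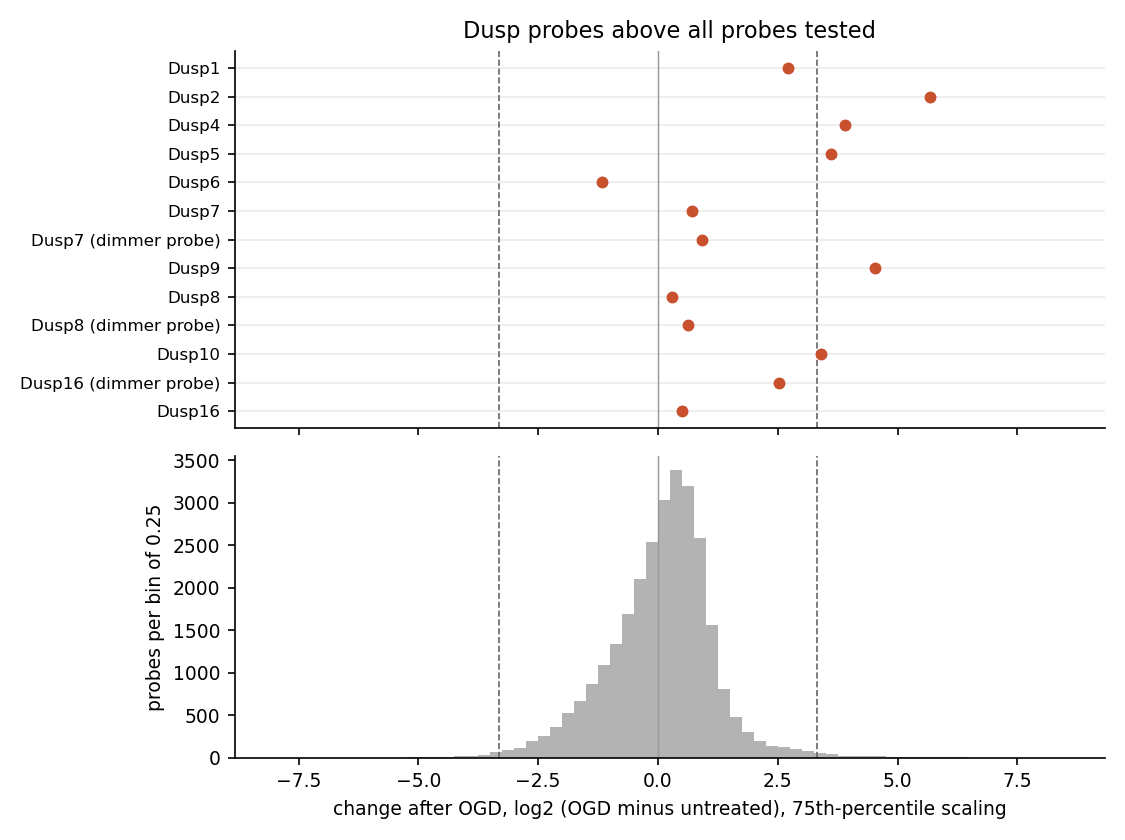
The upper panel shows the log2 change (OGD minus untreated, 75th-percentile scaling) of each of the 13 Dusp probes, and the lower panel the number of all 28258 tested probes in bins of 0.25 on the same axis. Dashed lines mark the 10-fold limit in each direction, which 5 Dusp probes exceeded on the higher side, while with spike-in scaling *Dusp2* did and *Dusp9*, plotted at its fitted value, could not be placed.

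The other genes of the MAP kinase pathway were counted in 8 lists, of which 99 genes were tested. By their brightest probe, 36 were higher and 33 were lower by the limma adjusted p, and the median log2 change was 0.05, against 0.16 for all genes and 3.06 for the Dusp members. Of all genes, 37.1% were higher and 27.8% lower. With spike-in scaling, 10 of the 99 were higher and 81 were lower, with a median of −1.24, where 3.84% of all genes were higher and 83.3% lower, with a median of −1.13. Among the 14 MAP kinases, 5 were higher and 5 were lower (2 and 10 with spike-in scaling). *Mapk8* (JNK1), at a log2 change of 2.49, and *Mapk6* (ERK3), at 2.39, rose most, and both stayed above 0 with spike-in scaling (1.21 and 1.1). *Nlk*, at −1.81, and *Mapk14* (p38α), at −1.28, fell most. Of the 7 MAP kinase kinases, 2 were higher and 2 were lower (0 and 6 with spike-in scaling). *Map2k3* (1.22) and *Map2k1* (0.47) were higher relative to the 75th percentile but at −0.07 and −0.81 with spike-in scaling, and *Map2k6*, a p38 activator, was at −1.78 and *Map2k5* at −0.59. Of 23 MAP kinase kinase kinases, 4 were higher and 15 were lower, against the 37.1% and 27.8% of all genes, and with spike-in scaling 2 were higher and 21 lower, against 3.84% and 83.3%. In this list *Map3k20* (ZAK, 2.65) and *Map3k9* (MLK1, 2.64) rose under both scalings, and *Map3k19* (−3.12) and *Map3k11* (MLK3, −2.56) fell.

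The counts of the next lists stand against the same background of 37.1% of all genes higher and 27.8% lower, or 3.84% and 83.3% with spike-in scaling. Kinases activated by MAP kinases were higher in 5 and lower in 4 of 11 (0 and 9 with spike-in scaling). *Rps6ka3* (RSK2) was at 1.20 and *Mknk1* at 1.19 on the log2 scale relative to the 75th percentile and each at −0.09 with spike-in scaling, while *Rps6ka1* (RSK1) fell by 2.24 and *Mknk2* fell by 1.52. Of 7 scaffolds, 3 were higher and 1 was lower (0 and 7 with spike-in scaling). *Lamtor3* (0.97) and *Mapk8ip3* (0.93) were higher relative to the 75th percentile and at −0.31 and −0.35 with spike-in scaling, and *Ksr1*, a scaffold of the ERK cascade, was at −0.94. The atypical dual-specificity phosphatases, relatives that lack the MAP kinase-binding domain, showed 3 higher and 3 lower of 14 tested (0 and 14 with spike-in scaling) and a range from −1.88 to 0.76. Their extremes were *Dusp18* (−1.88) and *Dusp23* (−1.69) at the low end and *Dusp11* (0.76) and *Dusp12* (0.69) at the high end, and the last pair reversed to −0.53 and −0.59 with spike-in scaling. Of 7 other phosphatases that act on MAP kinases, 4 were higher and 1 was lower (0 and 6 with spike-in scaling). *Ptpn5* (STEP) was at 1.28 and *Ppp2ca*, the catalytic subunit of PP2A, at 0.66, with −0.01 and −0.63 under spike-in scaling, and *Ptprr* was at −0.99.

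The last list held genes that ERK signaling can drive, and ERK activity itself was not measured. Of its 16 genes, 10 were higher and 2 were lower, against 37.1% and 27.8% of all genes. Their median log2 change was 0.86, against 0.16. *Myc*, with signals of 1331 and 1390 in untreated AECs and 6136 and 5937 after OGD, rose by 3.52 on the log2 scale, and *Fos*, with 2195 and 2199 against 8340 and 7912, rose by 3.26. Both groups were well separated, and the log2 changes with spike-in scaling were 2.23 and 1.97. The ETS factors *Etv4* (8803 and 9731 against 1453 and 1330) and *Etv1* (6224 and 7042 against 1534 and 1281) fell, with log2 changes of −1.36 and −0.87, and −2.65 and −2.15 with spike-in scaling. With spike-in scaling, 6 of the 16 were higher and 8 were lower, against 3.84% and 83.3% of all genes.

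**Figure D4:**
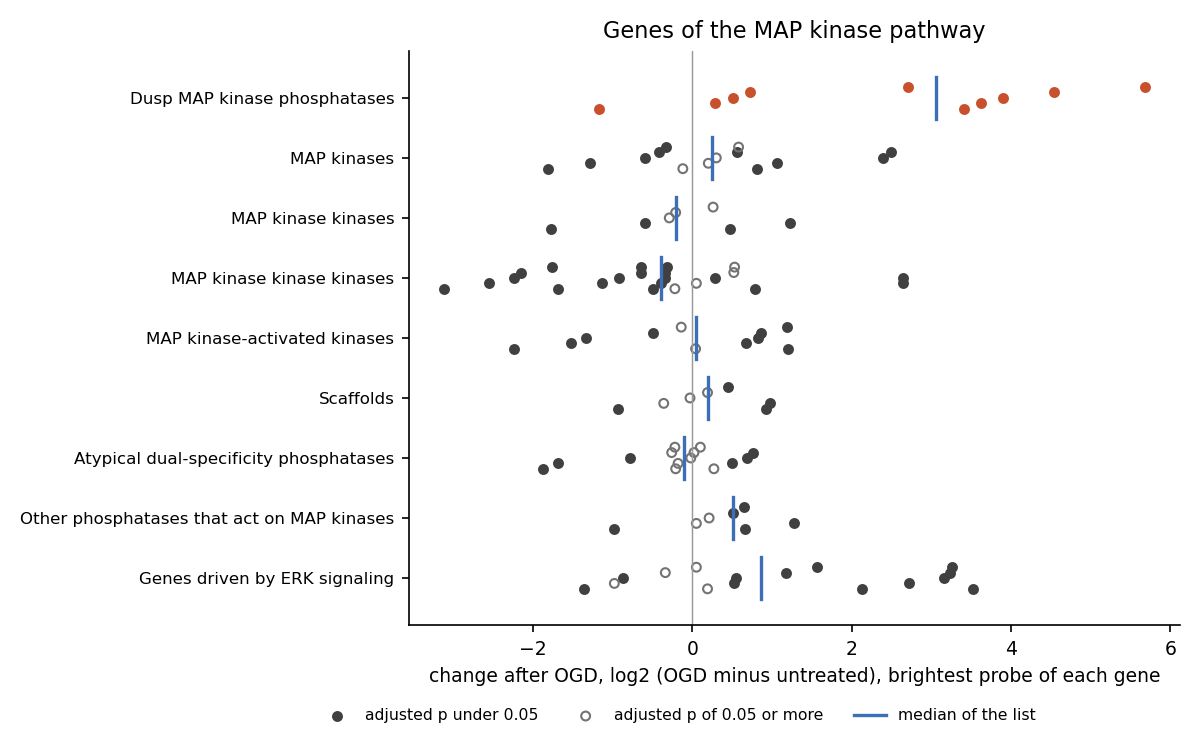
Each point is the log2 change (OGD minus untreated, 75th-percentile scaling) of a gene by its brightest probe, for the 10 Dusp members and the 8 pathway lists, with filled points past the limma adjusted p limit of 0.05 and vertical lines at the medians. The median of the Dusp members is 3.06 and those of the other lists lie from −0.40 to 0.86. With spike-in scaling, the medians of all 8 other lists lie below 0, and the Dusp members range from −2.46 (*Dusp6*) to 4.39 (*Dusp2*). *Dusp9* is plotted at its fitted value.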

How the data were processed

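RNA of 2 untreated and 2 OGD-treated AEC samples was analysed from single-color arrays. The values are the processed signal, an intensity per spot that the authors deposited as written by Feature Extraction 11.5.1.1 (per the labels and file headers), with background subtracted within each array and no normalization between arrays. The series table held the same values. Probe positions are on mm9, per the file headers. From the intensity, log2 was taken, control and outlier spots were left out, spots of a probe were averaged and each array's 75th percentile was subtracted. A probe was tested if, in 1 group or more, both arrays showed it well above background (28258 probes), using limma 3.58.1 in R 4.3.3, with Benjamini–Hochberg adjustment over all of them. Calls used an adjusted p of 0.05, alone or with 2-fold or 10-fold. The brightest probe stood for a gene. The steps were tested on simulated data. For arrays, the number of samples (2 per group) limits the precision.

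The members, the 8 pathway lists, the markers and the motifs were chosen with earlier results of these data known. The genes named were all members and, from each list, up to 2 with the largest increase and 2 with the largest decrease past the adjusted p. *Map3k20* was listed under its older symbol, Zak. Alternative settings comprised the methods' t-test, a robust limma prior with an intensity trend, normexp correction (offset 50), quantile, median, bright-probe and spike-in scaling, no filter or a stricter filter, outlier spots kept, the series table, the replicate number as a block, averaging the probes of a gene, and each array left out. Promoters were read from a RefSeq table (GRCm38.p6), with no coordinates carried between builds, and the placement of probes in exons or UTRs was not analysed here. Python 3.11.15 with pandas 2.3.3, numpy 2.4.6 and matplotlib 3.10.9 made the tables and figures.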

Additional observations from a re-analysis of the deposited data

How the results depend on the processing

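Of 210 recomputed log2 changes of member probes, 192 kept their direction and call. Of 112 recomputed values of the 7 counts of calls, 102 stayed within 1.5 times. Spike-in scaling reversed *Dusp7* (−0.57 and −0.37 for its probes), *Dusp8* (−1.0 and −0.67) and the brighter probe of *Dusp16* (−0.78). Its reference changed by −0.08 (log2) after OGD, and the 75th percentile by −1.37. It also gave 16161 probes over 2-fold, 1227 over 10-fold and, by fitted values, 1 member probe over 10-fold. Normexp gave 106 probes and 2 member probes over 10-fold, no filter gave 13017 probes over 2-fold, and the filter on all 4 arrays 240 over 10-fold. The share of calls that were higher was 58.3% in the main analysis, 76.8% with normexp and 5.2% with spike-in scaling. Leaving out each array moved the probes called from 18355 to between 10731 and 19161, member probes over 10-fold to between 4 and 5, and pathway genes called from 69 to between 45 and 72. The lowest numbers came without an untreated replicate: 11550 probes without untreated replicate 1, 10731 without untreated replicate 2, and 45 pathway genes without untreated replicate 1. By its brighter probe, *Dusp8* also lost its call under median and bright-probe scaling, with no filter and with the replicate number as a block. *Dusp16* lost its call by its brighter probe under the methods' t-test, which called 12 member probes and 12680 of all probes. The second probe of *Dusp8* lost its call without either untreated array. The causes were not tested. With the replicate number as a block, 12 member probes, 17205 probes and 65 pathway genes were called. The deviations of samples with the same number had a correlation of −0.0574, and the labels give the number no further meaning, so the samples were not treated as paired. The arrays lay on 1 slide and in 1 scan, so no such block was run.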
